A study of Mus musculus with 4 samples.

Results

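The genes described here encode 7 subunits of the GABA-A receptor, Gabra2, Gabra3, Gabra4 and Gabra5 (alpha subunits), Gabrb1 and Gabrb2 (beta subunits) and Gabrd (the delta subunit). They were chosen by symbol, and all 7 were found among the 55403 genes of the deposited tables. Nuclei came from frozen, pooled mouse hippocampus and were profiled by single-nucleus RNA sequencing with a 10x 3′ v3.1 kit, which counts unique molecular identifiers (UMIs), 1 per captured RNA molecule. The 3 groups were WT mice (1 library), PS19 mice (2 libraries) and TG_PS19 mice (1 library). PS19 mice (the PS19Vle line, on a B6;C3 background) carry human tau of the 1N4R isoform with the P301S substitution, driven by prion protein (Prnp) sequences. TG_PS19 mice carry the same tau transgene and also a SORLA-Rosa26 transgene, which overexpresses the sorting receptor SORLA through a CMV/β-actin promoter. The labels give no age in weeks or months and do not say whether the PS19 libraries came from separate animals.

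GABA-A receptors are pentameric chloride channels opened by GABA, the main inhibitory transmitter of the brain. Most hold alpha and beta subunits, between which GABA binds, and either a gamma subunit, typical of synaptic receptors, or the delta subunit, typical of receptors outside the synapse. The alpha subunit sets much of a receptor's pharmacology and place: alpha5 is known for tonic inhibition in hippocampal pyramidal neurons, and alpha4 with delta for tonic inhibition in dentate granule neurons. Astrocytes are also known to carry GABA-A receptors.

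Gabra2, Gabra4 and Gabrb1 lie in 1 subunit gene cluster on chromosome 5 (GRCm38), Gabra2 at chr5:70957597-71095849 and Gabra4 at chr5:71569749-71658308 on the minus strand, and Gabrb1 at chr5:71658113-72149037 on the plus strand. Gabra4 and Gabrb1 stand head to head, and their annotated gene bodies overlap by 196 bases. The start windows of these genes are printed because these 3 are the members with substantial levels in astrocytes as well as in neurons, and a Gabra3 window is printed as the contrast, since Gabra3 was near 0 in both astrocytes and granule neurons. Windows run from 250 bases before to 50 bases after the RefSeq start (RefSeq, GRCm38.p6), 5′ to 3′ on the gene's strand, and capitals mark CG dinucleotides and the letters TATAAA, also as TTTATA where it lies on the other strand. They are Gabra2 at chr5:71095800-71096099, minus strand, Gabra4 at chr5:71658259-71658558, minus strand, Gabrb1 at chr5:71657671-71657970, plus strand, and Gabra3 at chrX:72656758-72657057, minus strand.
Gabra2: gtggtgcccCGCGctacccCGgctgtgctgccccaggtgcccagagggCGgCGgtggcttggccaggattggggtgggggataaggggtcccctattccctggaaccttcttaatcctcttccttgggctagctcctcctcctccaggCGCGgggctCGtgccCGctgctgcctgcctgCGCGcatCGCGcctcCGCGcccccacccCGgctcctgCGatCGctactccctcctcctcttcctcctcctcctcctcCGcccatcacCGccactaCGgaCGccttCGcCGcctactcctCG
Gabra4: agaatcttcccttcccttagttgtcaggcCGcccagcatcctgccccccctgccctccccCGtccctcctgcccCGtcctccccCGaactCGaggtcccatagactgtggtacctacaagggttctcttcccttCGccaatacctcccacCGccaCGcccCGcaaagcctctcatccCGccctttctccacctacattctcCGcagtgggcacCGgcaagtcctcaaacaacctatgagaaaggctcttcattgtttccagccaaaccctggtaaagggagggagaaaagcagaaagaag
Gabrb1: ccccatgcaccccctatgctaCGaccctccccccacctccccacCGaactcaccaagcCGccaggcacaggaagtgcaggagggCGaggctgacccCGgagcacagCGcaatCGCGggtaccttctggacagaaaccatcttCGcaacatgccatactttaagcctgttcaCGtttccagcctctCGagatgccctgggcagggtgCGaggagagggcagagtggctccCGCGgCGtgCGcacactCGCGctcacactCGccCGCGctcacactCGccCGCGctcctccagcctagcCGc
Gabra3: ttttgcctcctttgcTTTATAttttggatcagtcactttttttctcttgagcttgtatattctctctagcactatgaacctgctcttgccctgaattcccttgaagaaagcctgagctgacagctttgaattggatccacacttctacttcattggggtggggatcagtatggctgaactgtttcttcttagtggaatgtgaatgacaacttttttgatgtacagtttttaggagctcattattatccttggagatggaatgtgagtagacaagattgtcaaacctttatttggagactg
The Gabra2 window and the printed Gabrb1 window each hold 25 CG dinucleotides, a number reached by 18.4% of the 32851 windows of that length in the table, whose median is 7. The table has another Gabrb1 start, with its window at chr5:71699682-71699981, which holds 9. The Gabra4 window holds 12. The Gabra5 window, not printed, holds 13, and windows at the Gabrb2 starts hold 11, 9 and 9. Both genes were low in astrocytes (2.7 to 6.57 CPM for Gabra5 and 4.2 to 7.44 CPM for Gabrb2). A link between CG number and level was not tested. The printed Gabra3 window holds none, like that of another Gabra3 start in the table, as do 5.4% of all windows. It has 1 TATAAA on the opposite strand, a motif present on either strand in 13.6% of windows. The RefSeq starts of Gabra4 and Gabrb1 are 387 bases apart. Windows were found for 6 of the 7 members, all but Gabrd. The other members lie at chrX:72432681-72656848 (Gabra3, minus strand), chr7:57407672-57510059 (Gabra5, minus strand), chr11:42419757-42629028 (Gabrb2, plus strand) and chr4:155384980-155398112 (Gabrd, minus strand). Gabra5 also overlaps another annotated gene on the opposite strand. Whether the counting used strand is not given in the sources used here, so reads from such partners cannot be told apart.

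Counts per library ranged from 20064025 to 48670533 UMIs, and 4467 to 11458 nuclei per library remained after filters. WT and TG_PS19 held more nuclei (11458 and 8963) than the PS19 libraries (4467 and 4728), more of their barcodes were removed as likely doublets (10.21% and 7.78%, against 3.7% and 3.94%), and their remaining nuclei were shallower (median 2485.5 and 2510 UMIs, against 2958 and 3634). Between 5 and 32 barcodes were shared by any pair of libraries. Human MAPT was at 0 CPM (counts scaled to a total of 1000000) in WT, 17.6 and 18.7 CPM in the PS19 pair and 12.9 CPM in TG_PS19, and human SORL1 had 2194 UMIs in TG_PS19 and at most 7 elsewhere, so both transgenes matched the labels. The TG_PS19 library also stood apart in sex: 4637 of its nuclei had Xist and no Y-linked UMIs, and 2135 had Y-linked UMIs and no Xist, while each other library had at most 38 nuclei of the first kind.

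Nuclei were clustered without the members, and clusters were named from fixed markers, so every class name below stands for nuclei that resemble that cell type. Levels are CPM of the UMIs summed over a class in a library. There were 13 classes with at least 50 nuclei in every library, among them dentate granule neurons (7 of 8 markers raised), a joint CA1/CA3 pyramidal class, inhibitory neurons, Cajal-Retzius neurons, astrocytes, oligodendrocytes, their precursors, microglia and fibroblasts. A neuronal cluster led by Vwc2l and an oligodendrocyte-marked cluster led by Enpp6 were left unnamed and are called by those genes. Exact Poisson and binomial intervals are 95% and cover counting error only.

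The alpha2 gene Gabra2 passed the low-count filter in 12 of the 13 classes, the most of the alpha genes. Its level in dentate granule neurons was 606.7 CPM in WT, 499.5 and 518.5 CPM in the PS19 pair and 606.8 CPM in TG_PS19. The PS19 pair lay below both other libraries, whose values were nearly the same. In the CA1/CA3 class it ranged from 514.5 to 569.4 CPM, which overlapped the granule neuron range. Astrocytes followed at 316 to 393 CPM and overlapped the Vwc2l-led neurons at 235 to 386 CPM. Between 16.98% and 21.3% of all Gabra2 UMIs of a library lay in astrocytes. Inhibitory neurons ranged widely, from 177 to 367 CPM, and Cajal-Retzius neurons, other excitatory neurons and oligodendrocyte precursors lay lower, at 70.6 to 158.1 CPM, 56.2 to 113.7 CPM and 60.6 to 88.8 CPM.

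Among astrocytes, Gabra2 differed by cluster. In the Rorb-led cluster it was 353 to 410 CPM and in the Gfap- and Myoc-led cluster 298 to 438 CPM. In the third, Adgrv1-led cluster it was 31.5 to 78.0 CPM. That cluster had Gabrb1 at 4143 to 6011 CPM, a range that overlaps those of the other astrocyte clusters, so its low Gabra2 did not come with low Gabrb1.

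The alpha3 gene Gabra3 was found in non-granule neurons and in oligodendrocyte precursors. The untested class of other excitatory neurons had 86.1 to 110.9 CPM, the Vwc2l-led neurons 74.3 to 109.6 CPM and inhibitory neurons 82.2 to 91.9 CPM, ranges that all overlap. Oligodendrocyte precursors came next at 62.9 to 71.9 CPM, above the CA1/CA3 class at 43.9 to 58.1 CPM, and held 11.9% to 22.3% of the gene's UMIs. At a finer clustering that separated CA1 from CA3, Gabra3 was 34.6, 35.8, 36.8 and 39.8 CPM in CA1 and 69.5, 83.9, 50.2 and 57.8 CPM in CA3 (WT, PS19 replicates 1 and 2, TG_PS19). Every CA3 value lay above every CA1 value. Dentate granule neurons had only 0.23 to 1.22 CPM, from 1 to 13 UMIs per library. Astrocytes had 0 to 1.5 CPM, where the 0, in PS19 replicate 1, allows a level of up to 1.23 CPM.

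The alpha4 gene Gabra4 was highest in dentate granule neurons, at 303 CPM in WT, 294 and 283 CPM in the PS19 pair and 272 CPM in TG_PS19. No other class reached that range. Below it lay Vwc2l-led neurons (140 to 175 CPM), CA1/CA3 neurons (112 to 143 CPM), astrocytes (110 to 122 CPM), other excitatory neurons (101.6 to 125.9 CPM) and inhibitory neurons (81.9 to 102.6 CPM), each of which overlapped the next. Astrocytes held 14.2% to 16.4% of the Gabra4 UMIs. Cajal-Retzius neurons, which had Gabra2, had at most 5.27 CPM of Gabra4.

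The alpha5 gene Gabra5 was highest in the CA1/CA3 class. It was at 183 CPM in WT, 161 and 146 CPM in the PS19 pair and 155 CPM in TG_PS19. Other excitatory neurons (94.4 to 139.5 CPM), granule neurons (99.5 to 120.7 CPM) and Vwc2l-led neurons (74.9 to 101.8 CPM) formed an overlapping series below it. Within the finer clustering, CA1 values (205, 197, 156 and 172 CPM) were above the CA3 values of the same library (157, 121, 137 and 127 CPM) in all 4 libraries. Inhibitory neurons had 22.6 to 42.8 CPM and astrocytes 2.7 to 6.57 CPM.

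The beta1 gene Gabrb1 was dominated by astrocytes. Its astrocyte level was 3666 CPM in WT, 3876 and 4335 CPM in the PS19 pair and 4493 CPM in TG_PS19, the highest level of any member in any class. After each nucleus was thinned to 1000 UMIs, 94.3% to 96.2% of astrocytes had a Gabrb1 UMI, against 1.41% to 5.17% of oligodendrocytes (median depths 2868 to 4518.5 and 1844.5 to 2877 UMIs before thinning), and the unthinned shares were 99.1% to 100% and 3.27% to 9.69%. Astrocytes held 49.1% to 55.9% of all Gabrb1 UMIs of a library and all neurons together 41.7% to 47.4%. Neuronal levels were 1184 to 1379 CPM in other excitatory neurons, 1271 to 1344 CPM in granule neurons and 1112 to 1291 CPM in the CA1/CA3 class, which all overlap, then 772 to 938 CPM in Vwc2l-led and 527 to 731 CPM in inhibitory neurons, which do not. The small ependymal class (12 to 26 nuclei per library) had 1440 to 1629 CPM.

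The beta2 gene Gabrb2 was neuronal, with 92.4% to 95.9% of its UMIs in neurons. Vwc2l-led neurons (481 to 575 CPM), inhibitory neurons (387 to 535 CPM) and granule neurons (421 to 467 CPM) overlapped, and the CA1/CA3 class lay below them at 285 to 318 CPM, within the range of other excitatory neurons (211 to 344 CPM). Within inhibitory neurons a Kit- and Ndnf-led sub-cluster had 962 CPM over all libraries. Cajal-Retzius neurons (116.7 to 189.7 CPM) and oligodendrocyte precursors (129.9 to 162.5 CPM) also had the gene. Astrocytes had 4.2 to 7.44 CPM, so the beta genes had opposite patterns there.

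The delta gene Gabrd was concentrated in dentate granule neurons, which held 75.9% to 81.2% of its UMIs. There it was 79.5 CPM in WT (interval 74.3 to 85.0), 52.0 CPM in each PS19 library (45.5 to 59.3 and 46.4 to 58.1) and 51.6 CPM in TG_PS19 (46.8 to 56.8). WT lay above all 3 tau-transgenic libraries, which overlapped each other. Vwc2l-led neurons had 13.96 to 28.7 CPM and inhibitory neurons 15.7 to 29.2 CPM, overlapping ranges, and the CA1/CA3 class 4.99 to 7.7 CPM. Within inhibitory neurons, the Adarb2-type sub-clusters had 0 UMIs of Gabrd in WT and both PS19 libraries (which allows up to 10.5, 20.5 and 10.4 CPM) and 1 in TG_PS19, while the Lhx6-type sub-clusters had 3 to 14 UMIs per library (11.7 to 37.1 CPM).

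**Figure D1:**
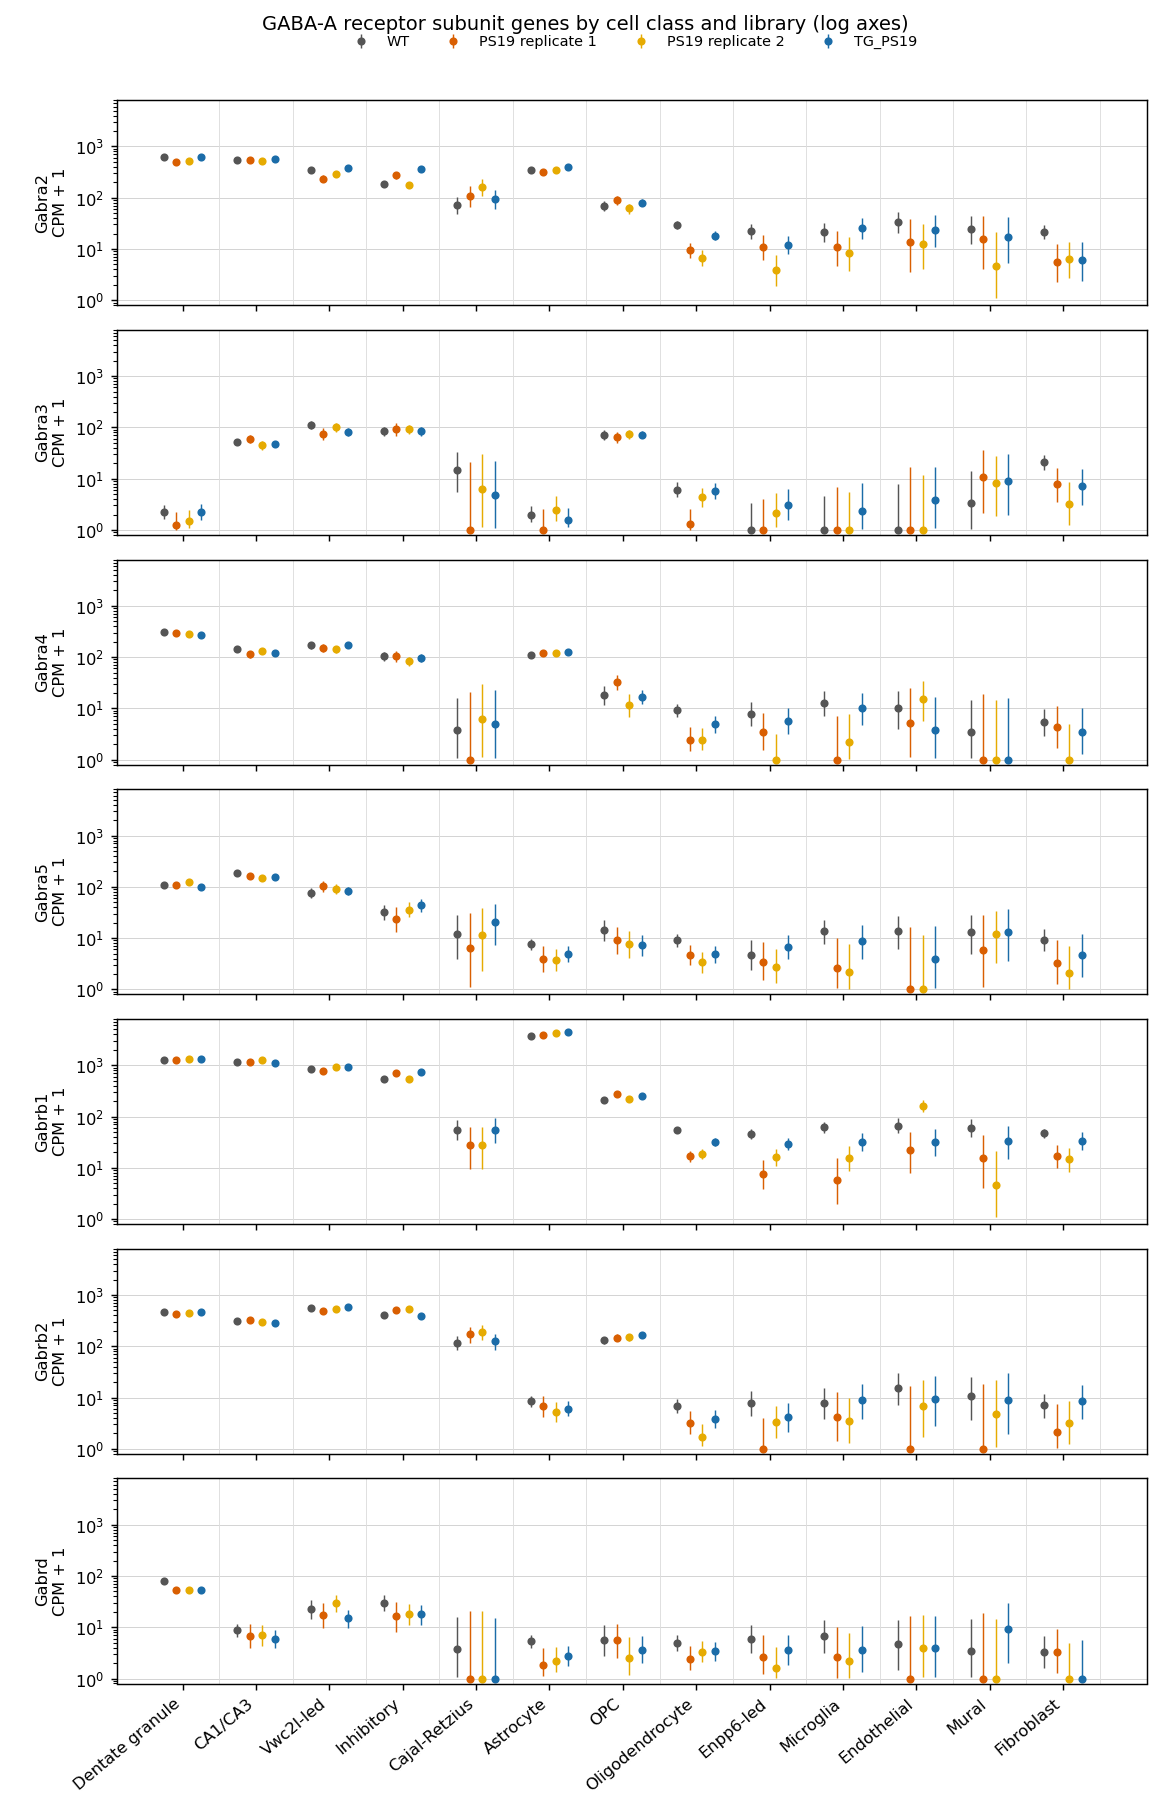
Levels of the 7 subunit genes (CPM of the class sum plus 1, log axis) in 13 cell classes on the x axis, 1 point per library with its exact 95% Poisson interval. Gabrb1 peaks in astrocytes at 3666 to 4493 CPM, Gabra3 is near the floor in granule neurons and astrocytes, and Gabrd is highest in granule neurons, at 51.6 to 79.5 CPM.

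Longer genes can yield more nuclear reads. Levels of different genes were therefore compared per 100 kb of gene length, which runs from 13.1 kb for Gabrd to 490.9 kb for Gabrb1. This scale assumes that counts grow in proportion to length, which was not tested, and whether introns were counted is not given. As counted, Gabrd in granule neurons (51.6 to 79.5 CPM) was below every member but Gabra3. Per 100 kb it was 605 CPM in WT, 396 in each PS19 library and 393 in TG_PS19. Gabra2 there was 361 to 439, Gabra4 307 to 342, Gabrb1 259 to 274, Gabrb2 201 to 223 and Gabra5 97.2 to 118 CPM per 100 kb. In the PS19 and TG_PS19 libraries the Gabrd level fell within the Gabra2 range, whereas in WT it was above it. In astrocytes Gabrb1 led, at 747 to 915 CPM per 100 kb, followed by Gabra2 at 229 to 284 and Gabra4 at 124 to 138. In the CA1/CA3 class Gabra2 led at 372 to 412 CPM per 100 kb, and Gabra5 was 142 to 179.

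**Figure D2:**
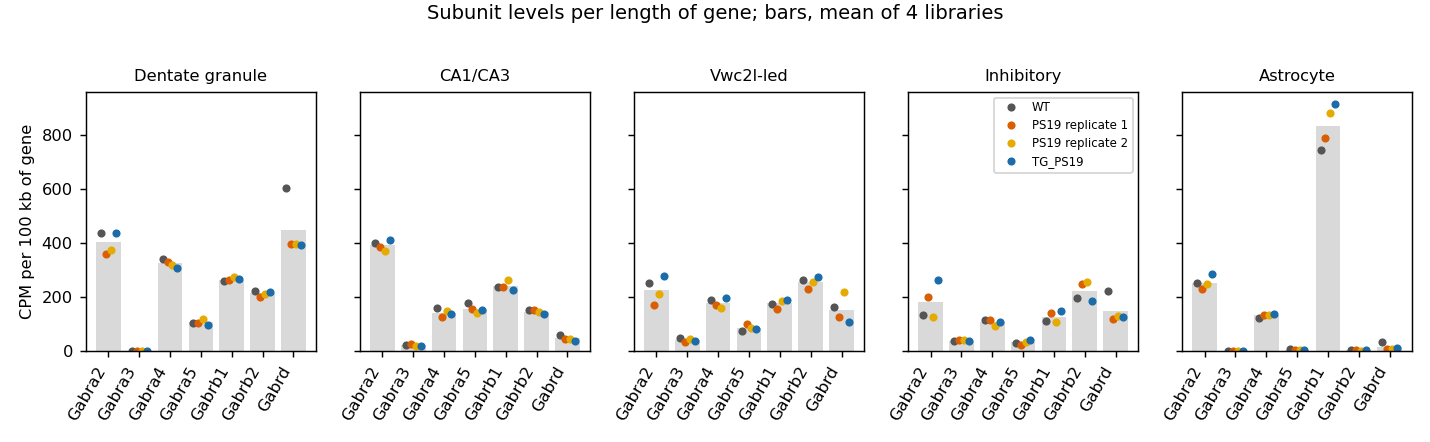
CPM per 100 kb of gene (y axis) for the 7 genes in 5 classes; points are the 4 libraries and bars their mean. Granule neurons show Gabrd highest in WT (605) and within the Gabra2 range (361 to 439) in the other libraries, and astrocytes show Gabrb1 far above the other members (747 to 915).

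Across the 13 tested classes and 4 libraries (52 points, log2 of CPM plus 10), Gabra4 and Gabrb1 had a Pearson r of 0.938, Gabra2 and Gabra4 0.922 and Gabra2 and Gabrb1 0.914. These are the chromosome 5 members. Gabra3 was the least like the others, with r from 0.289 to 0.701. The points share libraries, depth and clusters, so r is given as a description. Of 9865 genes considered, the most like Gabra2 was Trim9 (0.954), the most like Gabra3 was Sez6 (0.910), the most like Gabra4 was Dab1 (0.959) and the most like Gabra5 was Epha6 (0.954). Gabrb1 was closest to Gm48747 (0.969) and then Trim9 (0.961), Gabrb2 to Unc80 (0.987) and Gabrd to Sv2c (0.897).

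The groups were compared with edgeR's quasi-likelihood test on the summed counts of each class, 1 fit per class over all 4 libraries, and a gene was called at a Benjamini-Hochberg adjusted p under 0.05 over all genes of the class. WT and TG_PS19 have 1 library each, so the spread rests on the PS19 pair (1 residual degree of freedom), the lone libraries are assumed to vary like that pair, and the p-values may measure technical spread only. A low-count filter left 62 of the 91 member and class pairs, and a pair that passed only through its high library had to differ, so counts over the 62 are descriptions. The comparisons share libraries: the PS19 pair stands in both PS19 against WT and TG_PS19 against PS19. The standard error (SE) is the log2 fold change, without its sign, divided by the square root of the test's F statistic. It restates the test and is not a separate measure of spread between animals.

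PS19 against WT sets mice with the tau transgene against mice without it, where genotype and the lone WT library cannot be told apart. It gave 11 called member and class pairs of 62, all lower in PS19, and 23 pairs at an unadjusted p under 0.05. Of all 152824 gene and class pairs 2.82% were called, and 1.5% were called lower. The median log2 fold change of the 62 pairs was -0.26, against 0.006 over all pairs. Only 1 of the 11 was in neurons, Gabrd in granule neurons. The other 10 were in oligodendrocytes, the Enpp6-led cluster, microglia and fibroblasts, where the members were at low levels. Among them, Gabra3 in fibroblasts passed the low-count filter only through WT.

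In granule neurons Gabrd, at the levels given above, fell by 0.59 on the log2 scale in PS19 (SE 0.12, adjusted p = 8.51e-05, edgeR). Among genes tested in granule neurons 3.05% were called. The share of granule neurons with a Gabrd UMI after thinning was 8.16% in WT, 4.14% and 6.12% in PS19 and 4.85% in TG_PS19, against 0.137% to 0.505% of oligodendrocytes. Unthinned shares were 38.8%, 34.6%, 37.2% and 31.0%, at median depths of 6408, 8635, 10165.5 and 7654.5 UMIs. None of the other 5 tested members passed in granule neurons. The nearest was Gabra2, at -0.24 (SE 0.10, adjusted p = 0.200), and Gabra4, Gabra5, Gabrb1 and Gabrb2 lay between -0.10 and 0.10. Summed levels of the 8 granule markers were 1420, 1379, 1306 and 1363 CPM, and those of the 8 astrocyte markers, none at 0, were 333, 250, 188 and 254 CPM (WT, PS19 replicates 1 and 2, TG_PS19). The Gabrd call ended under DESeq2 (log2 fold change -0.59, adjusted p = 0.412) and in thinned counts (-0.67, adjusted p = 0.226).

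In the CA1/CA3 class all 7 members were tested and none passed in PS19 against WT. Their log2 fold changes ran from -0.42 for Gabrd to 0.02 for Gabrb1, with Gabra5 at -0.31 (adjusted p = 0.598, edgeR). Inhibitory neurons, Vwc2l-led neurons, Cajal-Retzius neurons, astrocytes and precursors also had no called member. In astrocytes Gabrb1 was at 0.14 (SE 0.14, adjusted p = 0.734), Gabra2 at -0.12 (adjusted p = 0.787) and Gabra4 at 0.10 (adjusted p = 0.840). The low-level members lay further down there, Gabrd at -2.06 (SE 0.71, adjusted p = 0.0625, edgeR), Gabra5 at -1.26 (adjusted p = 0.0983) and Gabrb2 at -0.63 (adjusted p = 0.467). Astrocytic Gabrd was 4.34 CPM in WT, 0.82 and 1.20 CPM in the PS19 pair and 1.70 CPM in TG_PS19. It passed the low-count filter only through WT, so its direction was fixed by the filter and the value is a description. A p that misses the threshold does not show equal levels.

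**Figure D3:**
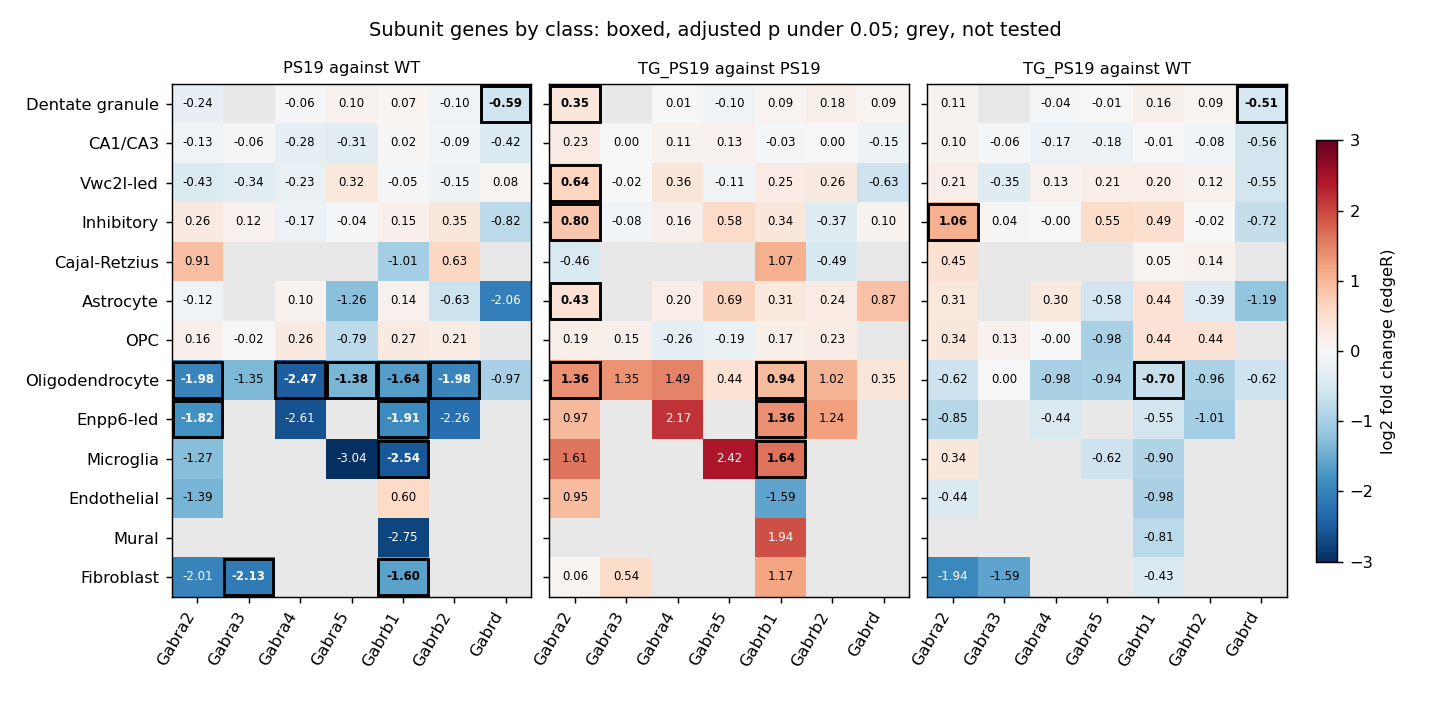
Log2 fold changes (colour and number; edgeR) of the 7 genes (x axis) in 13 classes (y axis) for the 3 comparisons; boxes mark an adjusted p under 0.05 and grey marks pairs not tested. The 11 boxed values of PS19 against WT are all negative and sit mainly in glia and fibroblasts, and the 8 of TG_PS19 against PS19 are all positive.

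In oligodendrocytes 5 members were called lower in PS19, where 6.96% of genes tested in that class were called. Gabrb1 was 54.3 CPM in WT, 15.8 and 17.7 CPM in the PS19 pair and 31.1 CPM in TG_PS19. WT was highest, the PS19 pair lowest, and TG_PS19 lay between them with no overlap. The log2 fold change was -1.64 (SE 0.18, adjusted p = 9.33e-17, edgeR). Gabra2 was 28.4 CPM in WT, 8.45 and 5.68 CPM in the PS19 pair and 17.3 CPM in TG_PS19, in the same order, with a log2 fold change of -1.98 (SE 0.25, adjusted p = 5.17e-13). Gabra4 (-2.47), Gabra5 (-1.38) and Gabrb2 (-1.98), all at 0.71 to 8.23 CPM, were also called, at adjusted p = 9.18e-05, 0.0327 and 0.0129 (edgeR). These 3 calls ended in counts thinned to 1000 UMIs a nucleus (adjusted p = 0.365, 0.664 and 0.0546), and Gabrb2 was at -2.95 without PS19 replicate 1 and -1.33 without replicate 2. The Gabra5 and Gabrb2 levels were as low in astrocytes. The class holds 2 clusters, of which the larger had 61.4% of the WT, 49.8% and 47.4% of the PS19 and 59.9% of the TG_PS19 nuclei. Gabrb1 was 54.9, 16.5, 15.1 and 31.4 CPM in that cluster and 53.1, 15.1, 20.3 and 30.6 CPM in the other, with WT highest and PS19 lowest in both.

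The same 2 genes were called lower in the Enpp6-led cluster, Gabra2 at -1.82 (adjusted p = 0.0058) and Gabrb1 at -1.91 (adjusted p = 1.1e-06, edgeR), where 2.01% of genes were called. The Gabra2 value there was -2.81 without PS19 replicate 1 and -1.07 without replicate 2, and -1.20 (adjusted p = 0.769) in thinned counts. The Gabrb1 value was -1.52 without replicate 1 and -2.71 without replicate 2. In microglia Gabrb1 was 61.7 CPM in WT, 4.89 and 14.7 CPM in the PS19 pair and 31.2 CPM in TG_PS19. WT was again highest and TG_PS19 between. Its log2 fold change was -2.54 (SE 0.40, adjusted p = 1.65e-08), with 8.12% of microglial genes called, and with doublets kept it was -0.92 (adjusted p = 0.611). Without PS19 replicate 2 the value was -3.62, and without replicate 1 it was -2.04. The groups lay in different microglial clusters once these were resolved more finely: a Siglech-led cluster held 575 of 595 WT, 60 of 253 and 68 of 287 PS19 and 413 of 422 TG_PS19 nuclei, and an Ly86- and Fyb-led cluster held 20, 192, 219 and 9. In the first, Gabrb1 had 60 UMIs in WT, 0 and 1 in the PS19 pair and 24 in TG_PS19 (61.2, 0, 5.6 and 31.9 CPM, where the 0 allows up to 23.8 CPM), with a value of -4.15 (adjusted p = 0.0053, an alternative chosen after seeing the data). In fibroblasts, where 2.65% of genes were called, Gabrb1 fell by 1.605 (adjusted p = 0.000284, edgeR). Gabra3 was also called lower there, by 2.13 (20.1 CPM in WT, 6.83 and 2.14 CPM in PS19, 6.32 CPM in TG_PS19, adjusted p = 0.0475, edgeR). It had 36 UMIs in WT, 6 and 2 in the PS19 pair and 5 in TG_PS19. It passed the low-count filter only through WT, so its direction was fixed by the filter and the value is a description. Gabra3 was at -3.12 without PS19 replicate 1 and lost its call with no low-count filter (adjusted p = 0.0994), and Gabrb1 lost its call in thinned counts (-1.89, adjusted p = 0.192).

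Markers of some other cell types moved with these glial values. In oligodendrocytes the 8 astrocyte markers summed to 530 CPM in WT, 246 and 195 CPM in the PS19 pair and 394 CPM in TG_PS19, and the 7 markers of other excitatory neurons to 55.8, 22.8, 17.5 and 37.6 CPM, with none at 0 in any library. Markers of microglia (267, 186, 138 and 194 CPM), mural cells (96.8, 56.9, 43.7 and 53.8 CPM) and fibroblasts (53.5, 21.4, 17.5 and 21.6 CPM) were also highest in WT. The 8 granule markers varied less, from 231 to 297 CPM, with at most 1 at 0. The 7 CA1 markers ran the other way, at 64.1, 109.0, 109.2 and 96.4 CPM with none at 0, and the 8 inhibitory markers were at 1817, 1791, 1990 and 2112 CPM with at most 2 at 0, lowest in a PS19 library and next lowest in WT. In the Enpp6-led cluster the astrocyte sums were 533, 317, 297 and 432 CPM and the excitatory sums 49.1, 24.0, 12.1 and 28.4 CPM, with up to 3 excitatory markers at 0, while the CA1 sums were 29.6, 30.6, 30.5 and 44.7 CPM. In microglia the astrocyte sums were 654, 480, 451 and 627 CPM and the excitatory sums 57.7, 30.9, 14.7 and 46.8 CPM, with at most 1 and 3 markers at 0, and the CA1 sums were 450, 339, 356 and 500 CPM. In fibroblasts the astrocyte sums were 1964, 1845, 1736 and 1849 CPM and the granule sums 98.1, 42.1, 41.8 and 69.5 CPM, with none and at most 2 at 0. The excitatory sums there were 50.2, 20.5, 26.8 and 44.2 CPM. The CA1 sums (160, 140, 169 and 177 CPM) and the inhibitory sums (235, 216, 250 and 188 CPM) did not follow that order, with up to 1 and 3 markers at 0. The part of these markers, of the number of nuclei loaded per library and of the doublet share in the lower glial values was not tested.

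**Figure D4:**
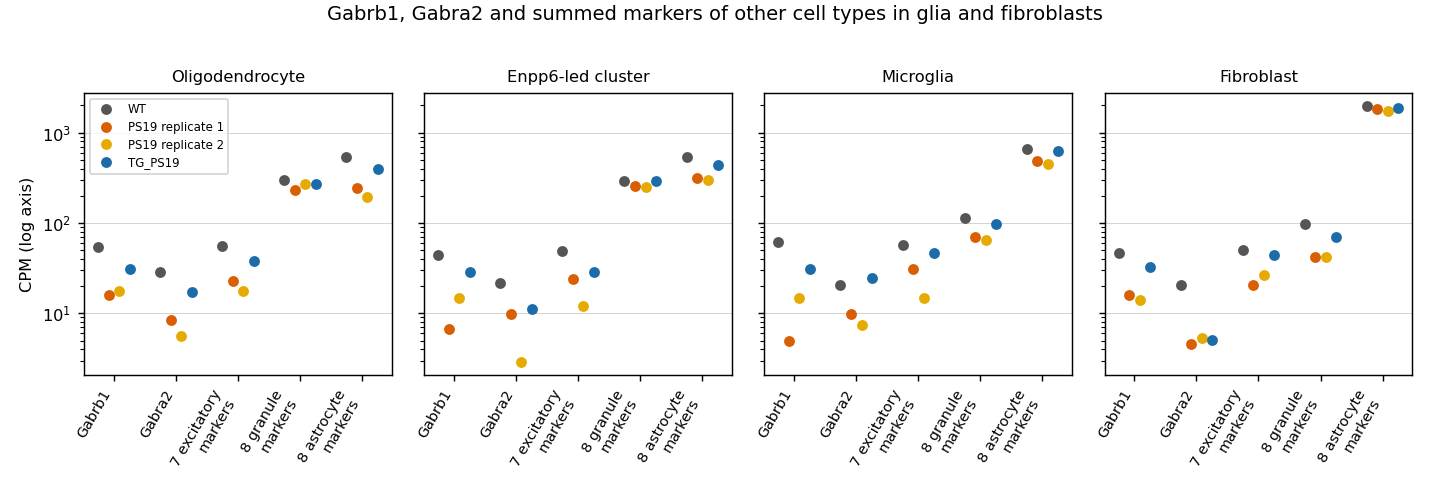
CPM (log axis) of Gabrb1, Gabra2 and the summed markers of other excitatory neurons, granule neurons and astrocytes in 4 non-neuronal classes, 1 point per library. In oligodendrocytes Gabrb1 (54.3, 15.8, 17.7 and 31.1 CPM) and the astrocyte sum (530, 246, 195 and 394 CPM) are both highest in WT, next in TG_PS19 and lowest in the PS19 pair.

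TG_PS19 against PS19 sets mice with the SORLA transgene on the tau background against mice without it. The TG_PS19 library held 4637 nuclei with Xist and no Y-linked UMIs, against 15 and 9 in the PS19 pair. The SORLA transgene, sex and library therefore cannot be told apart. The comparison gave 8 called pairs of 62, all higher in TG_PS19, and 14 pairs with an unadjusted p under 0.05. Over all pairs 4.73% were called and 3.09% were called higher. The median log2 fold change of the 62 pairs was 0.25, against -0.01 over all pairs. Scaling mattered here: of all calls in this comparison 65.2% were higher, and 45.9% were with plain library totals in place of edgeR's trimmed-mean scaling, which moved the median of all genes by up to -0.18 on the log2 scale (astrocytes). Of the members 5 were then called, all higher.

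Gabra2 was the neuronal member that rose. In granule neurons, at the levels given above, its log2 fold change was 0.35 (SE 0.10, adjusted p = 0.0050, edgeR), in a class where 9.31% of genes were called, and it was 0.25 (adjusted p = 0.0286) with library totals. The call ended in thinned counts (0.32, adjusted p = 0.176) and under DESeq2 (0.35, adjusted p = 0.0533). With only the TG_PS19 nuclei that had Y-linked UMIs and no Xist it was 0.48 (adjusted p = 0.000285). TG_PS19 and WT had the same level there, 606.8 and 606.7 CPM. Gabra2 in Vwc2l-led neurons was 350 CPM in WT, 235 and 291 CPM in the PS19 pair and 386 CPM in TG_PS19. TG_PS19 was above both PS19 libraries and above WT. The log2 fold change was 0.64 (SE 0.19, adjusted p = 0.0416, 2.36% of genes called), and 0.55 (adjusted p = 0.0638) with library totals and 0.38 (adjusted p = 0.949) in thinned counts. In the CA1/CA3 class it was 0.23 (SE 0.15, adjusted p = 0.517). Whether the change differed between neuron classes was not tested.

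Gabra2 in inhibitory neurons was 185 CPM in WT, 275 and 177 CPM in the PS19 pair and 367 CPM in TG_PS19. WT lay within the range of the PS19 pair, and TG_PS19 lay above all. The log2 fold change was 0.80 (SE 0.22, adjusted p = 0.0247, edgeR, 1.86% of genes called), and it was 0.52 without PS19 replicate 2 and 1.10 without replicate 1. The makeup of the class moved with this result. An Ebf2- and Ebf3-led sub-cluster, which had the highest Gabra2 of the sub-clusters (717 CPM), held 2 nuclei in WT, 8 in each PS19 library and 27 in TG_PS19, and a Prdm16- and Tafa1-led one (475 CPM) held 6, 5, 6 and 35. The 8 inhibitory markers summed to 12771, 9434, 13298 and 8720 CPM. Within the Lhx6-type and Adarb2-type sub-clusters alone (78, 34, 46 and 55 nuclei, an alternative chosen after seeing the data), the value was 0.45 (adjusted p = 0.915).

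In astrocytes Gabra2 was 351 CPM in WT, 316 and 343 CPM in the PS19 pair and 393 CPM in TG_PS19. TG_PS19 was the highest library and WT the next. The log2 fold change was 0.43 (SE 0.13, adjusted p = 0.0187, edgeR), in a class where 9.09% of genes were called, and 0.25 (adjusted p = 0.183) with library totals. In the Rorb-led cluster alone it was 0.25 (adjusted p = 0.487), and in the Gfap-led cluster alone 0.66 (adjusted p = 0.0382), both alternatives chosen after seeing the data. The makeup of the class moved with the groups: the Gfap- and Myoc-led cluster held 12.3% of WT, 35.5% and 33.7% of PS19 and 10.2% of TG_PS19 astrocytes. With only the TG_PS19 nuclei that had Y-linked UMIs the class value was 0.51 (adjusted p = 0.01), and it lost its call in thinned counts (0.43, adjusted p = 0.112). Astrocytic Gabrb1 was at 0.31 (SE 0.13, adjusted p = 0.154). The summed astrocyte markers in this class were 12486, 12079, 11856 and 12332 CPM.

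**Figure D5:**
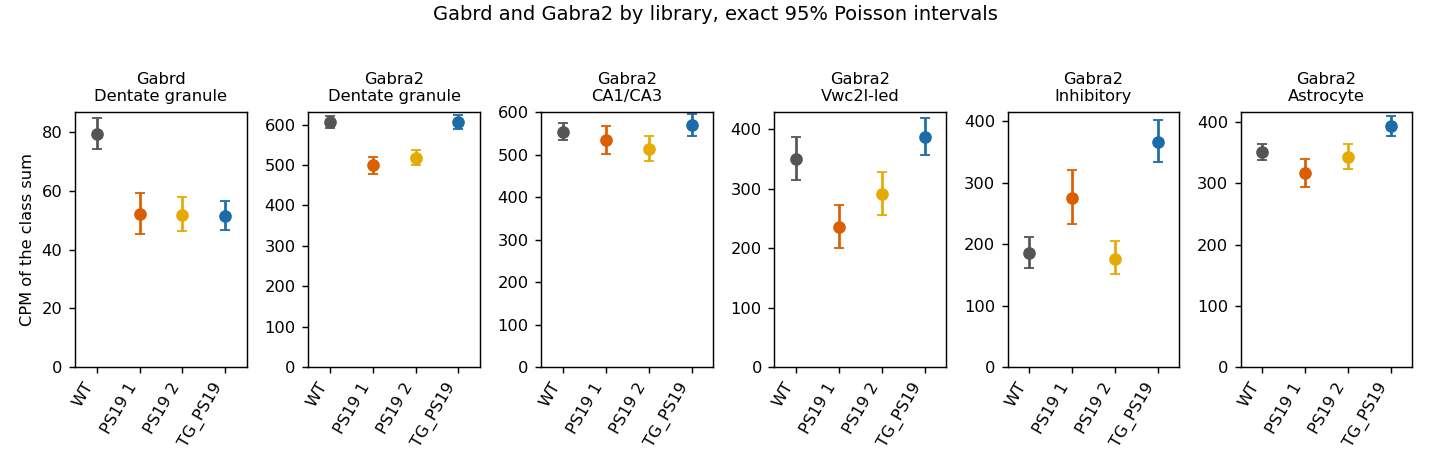
CPM (y axis from 0) of Gabrd in granule neurons and of Gabra2 in 5 classes, 1 point per library with its exact 95% Poisson interval. WT Gabrd (79.5 CPM) lies above the other 3 libraries (51.6 to 52.0 CPM), and Gabra2 in granule neurons is lower in the PS19 pair (499.5 and 518.5 CPM) than in WT and TG_PS19.

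The glial values called in TG_PS19 against PS19 were Gabra2 (1.36, SE 0.28, adjusted p = 5.3e-05) and Gabrb1 (0.94, SE 0.20, adjusted p = 0.000175) in oligodendrocytes, where 8.68% of genes were called, Gabrb1 in the Enpp6-led cluster (1.36, SE 0.34, adjusted p = 0.0050, 2.87% called) and Gabrb1 in microglia (1.64, SE 0.48, adjusted p = 0.0112, 9.27% called, edgeR throughout). The sums of astrocyte and other excitatory markers given above were also higher in TG_PS19 than in both PS19 libraries for these classes. Without PS19 replicate 2 the microglial value was 2.72, and without replicate 1 it was 1.14. The value in the Enpp6-led cluster was 2.16 and 0.97 in the same order. In the Siglech-led microglial cluster alone the microglial value was 3.28 (adjusted p = 0.191). With Y-linked TG_PS19 nuclei the oligodendrocyte calls held (1.44 and 1.04, adjusted p = 0.0096 and 0.0086) and those in the Enpp6-led cluster (0.98, adjusted p = 0.406) and microglia (1.39, adjusted p = 0.483) did not. Gabrd in granule neurons was at 0.09 (adjusted p = 0.776).

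In TG_PS19 against WT, where both arms are lone libraries, 3 of 62 pairs were called and 10 had an unadjusted p under 0.05. Over all pairs 1.97% were called, 0.565% lower and 1.4% higher, and the share of all calls that were higher was 71.3%, or 45.5% with library totals. Gabrd in granule neurons was lower (-0.51, SE 0.13, adjusted p = 0.0051, edgeR, 6.33% of genes called). With only the TG_PS19 nuclei that had Y-linked UMIs and no Xist, it was -0.42 (adjusted p = 0.203). Gabra2 in inhibitory neurons was higher (1.06, SE 0.26, adjusted p = 0.0054, 1.95% called), and within the Lhx6-type and Adarb2-type sub-clusters it was 0.51 (adjusted p = 0.988). Gabrb1 in oligodendrocytes was lower (-0.70, SE 0.20, adjusted p = 0.0176, 2.86% called).

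Other genes of GABA signalling were read from fixed lists in the same fits, given here by counts of called gene and class pairs. Of 12 other GABA-A subunit genes 7 were tested, in 56 pairs: 9 were called lower and none higher in PS19 against WT, 9 higher and 1 lower in TG_PS19 against PS19, and 1 higher and 2 lower in TG_PS19 against WT. Their medians were -0.27, 0.35 and -0.13, against 0.006, -0.01 and -0.003 over all pairs. Of all pairs 2.82%, 4.73% and 1.97% were called in the same order (1.5%, 1.65% and 0.565% lower, and 1.32%, 3.09% and 1.4% higher). The gamma3 gene Gabrg3 in granule neurons was 151 CPM in WT, 140 and 159 CPM in the PS19 pair and 191 CPM in TG_PS19. TG_PS19 was above the other libraries, which overlapped, and Gabrg3 rose there by 0.44 against PS19 (adjusted p = 0.000373) and 0.45 against WT (adjusted p = 0.0029, edgeR). In astrocytes it was 0.56 higher than in PS19 (adjusted p = 0.0014), and 0.30 and 0.36 in the Rorb-led and Gfap-led clusters alone (adjusted p = 0.389 and 0.597). The gamma1 gene Gabrg1, a chromosome 5 neighbour of Gabra2, was 39.5, 13.9, 22.0 and 60.4 CPM in inhibitory neurons and was called higher in TG_PS19 against PS19 (1.75, adjusted p = 0.000263), beside the same shift in sub-clusters. In the Lhx6-type and Adarb2-type sub-clusters it was 0.88 (adjusted p = 0.945).

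The 20 genes of receptor scaffolds and trafficking were tested in 218 pairs, with 2 called higher and none lower in PS19 against WT, 5 higher and 4 lower in TG_PS19 against PS19, and 4 higher and none lower in TG_PS19 against WT, where 2.82%, 4.73% and 1.97% of all pairs were called in either direction (1.32%, 3.09% and 1.4% higher, and 1.5%, 1.65% and 0.565% lower). With library totals, which lower the share of higher calls among all genes as well, the last 2 comparisons had 1 higher and 5 lower, and 1 higher and 1 lower. Plcl1, which encodes a phospholipase-like protein that binds GABA-A receptor beta subunits, was 504 CPM in WT, 1047 and 1120 CPM in the PS19 pair and 707 CPM in TG_PS19 in fibroblasts. PS19 was the highest group, and the PS19 against WT value was 1.13 (SE 0.14, adjusted p = 4.53e-12, edgeR). The 9 genes of GABA synthesis, transport and breakdown gave 55 pairs, with 1 called higher and 4 lower in PS19 against WT, none in TG_PS19 against PS19 and 1 lower in TG_PS19 against WT. Slc6a11, the GABA transporter GAT-3 of astrocytes, was 344 CPM in WT, 254 and 233 CPM in the PS19 pair and 277 CPM in TG_PS19 in astrocytes. WT was above the other libraries, and the gene fell by 0.53 in PS19 (SE 0.13, adjusted p = 0.0026). With the cluster makeup given above this value differed by cluster, at -0.08 (adjusted p = 0.957) in the Rorb-led and -0.90 (adjusted p = 0.0049) in the Gfap-led cluster alone; the difference was not tested. Slc32a1, the vesicular GABA transporter, was 105 CPM in WT, 66.1 and 63.9 CPM in the PS19 pair and 41.9 CPM in TG_PS19 in inhibitory neurons and was called lower in TG_PS19 against WT (-1.24, adjusted p = 0.0089), beside the same shift in sub-clusters and marker sum. In the Lhx6-type and Adarb2-type sub-clusters it was -1.07 (adjusted p = 0.519).

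The 6 genes of the GABA-B receptor, the metabotropic receptor, were tested in 54 pairs, with 4 called lower in PS19 against WT, 2 higher in TG_PS19 against PS19 and 1 higher in TG_PS19 against WT. Of all pairs 2.82%, 4.73% and 1.97% were called in the same order (1.5% lower in the first, and 3.09% and 1.4% higher in the others). With library totals the 4 lower calls remained in number and neither TG_PS19 comparison had any. Kctd8, an auxiliary GABA-B subunit, was 51.2 CPM in WT, 26.1 and 30.8 CPM in the PS19 pair and 46.1 CPM in TG_PS19 in the CA1/CA3 class. The PS19 pair lay below both other libraries, and the log2 fold changes were -0.89 against WT (adjusted p = 0.0024) and 0.80 for TG_PS19 against PS19 (adjusted p = 0.0079, edgeR), the latter 0.69 (adjusted p = 0.0561) with library totals. The 7 genes of neuronal chloride transport were tested in 76 pairs, with 2 called higher in PS19 against WT, none in TG_PS19 against PS19 and 2 higher in TG_PS19 against WT. All 4 were the chloride channel gene Clcn2. Beside the shares over all pairs given above, such small counts are not read as a result about the list. With library totals the counts were 2 higher, 1 lower and none, and the Clcn2 calls of TG_PS19 against WT, in oligodendrocytes and granule neurons, ended (adjusted p = 0.0793 and 0.136). Clcn2 in oligodendrocytes was 44.5 CPM in WT, 72.1 and 60.8 CPM in the PS19 pair and 64.8 CPM in TG_PS19. WT was lowest there, and the PS19 against WT value was 0.62 (adjusted p = 0.0031).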

How the data were processed

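UMI counts per gene and nucleus, as the authors deposited them in 10x matrices for 4 libraries, were used without normalization. Cell Ranger 7.1.0 and GRCm38 are named per the submitters' processing notes, and the counting options are not given in the sources used here. Gene identifiers were placed with GENCODE M21. Columns of other samples numbered 0. The 7 members and all gene lists were chosen with earlier results of these data known.

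Nuclei with under 500 UMIs or 300 genes or over 5% mitochondrial UMIs were removed (0 to 4 per library). Doublets were called from simulated doublets among 30 neighbours, at 0.8% per 1000 barcodes. Clusters were made with scanpy 1.11.5 and leidenalg 0.10.2 from 2000 variable genes, 30 components, 15 neighbours and resolution 1.0 (26 clusters), without the members, other GABA-A subunit genes, the transgenes, mitochondrial and sex-linked genes. A cluster took the name of the list with the largest share of markers raised at least 1 log2 unit over the others (pseudocount 10 CPM, detected in 10% of nuclei), with at least 4 raised, or 3 and 50% of the list. That rule was set after the clusters were seen.

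Counts were summed per class and library where every library had at least 50 nuclei, and tested with edgeR 4.0.16 (filterByExpr, trimmed-mean scaling, glmQLFit, Benjamini-Hochberg within a class). The PS19 libraries differed beyond sampling noise (chi-square per degree of freedom 1.41 to 2.52 by class) and were kept as 2 samples. All members are named. Of each list at most the 3 genes per comparison with the smallest adjusted p among those called are named, and not every one. Patterns were compared by Pearson r of log2(CPM + 10), among genes with at least 50 CPM in some class and library. The procedure was tested on simulated data: of genes changed 4-fold, 170 of 192 were called in granule neurons, 172 of 188 in astrocytes and 125 of 184 in inhibitory neurons (PS19 against WT), with 11, 3 and 1 unchanged genes called. Alternatives were other scalings, DESeq2 1.42.0, no low-count filter, other edgeR settings, doublets kept, resolution 2.0, thinning to 1000 UMIs, small clusters left out, TG_PS19 nuclei with Y-linked UMIs only, and each PS19 library left out.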

Additional observations from a re-analysis of the deposited data

How the results depend on the processing

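No direction of a called pair reversed under any alternative that gave it a value. The number of called pairs in PS19 against WT was 11, and 1 under DESeq2 (7 at an unadjusted p under 0.05) and 4 in counts thinned to 1000 UMIs, where 43 pairs could be tested. It was 11 to 15 under the other settings. In TG_PS19 against PS19 it was 8, and 5 with library totals, 0 under DESeq2 (6 at an unadjusted p under 0.05), 3 in thinned counts, 4 with TG_PS19 nuclei that had Y-linked UMIs only, and 6 to 11 elsewhere. In TG_PS19 against WT it was 3, and 0 under DESeq2 (2 at an unadjusted p under 0.05), 0 in thinned counts (5), 0 with Y-linked nuclei (9), 1 with doublets kept, and 3 elsewhere. DESeq2 gave no adjusted p for 7 of the 22 called pairs, and of the other 15 it called Gabrb1 in oligodendrocytes in PS19 against WT (adjusted p = 0.0070). Of 280 values of single pairs under alternatives, 212 kept their side of the threshold or their size, 50 lost the call and 18 moved when a PS19 library was left out. The cause of each lost call was not tested, beyond the fewer nuclei or UMIs that thinning and the Y-linked subset leave. No paired analysis was possible because only PS19 has replicate numbers in the labels.

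The limits are those of the design: 1 WT and 1 TG_PS19 library, so genotype and library cannot be told apart, pooled tissue, and low counts of the members outside neurons and astrocytes. TG_PS19 also differed from the other libraries in sex, so in its comparisons genotype, sex and library cannot be told apart.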

Other observations

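Gabrb1 in the choroid plexus class, too small to test (24 to 34 nuclei per library), was 194 CPM in WT, 187 and 166 CPM in the PS19 pair and 538 CPM in TG_PS19. The TG_PS19 value came from 100 UMIs in 29 of 34 nuclei, with at most 11 in 1 nucleus, while WT had 30 UMIs in 17 of 33 nuclei. In endothelial nuclei Gabrb1 was 65.6 CPM in WT, 21.3 and 158.7 CPM in the PS19 pair and 31.4 CPM in TG_PS19, and 30 of the 55 UMIs of PS19 replicate 2 lay in a single nucleus of 5885 UMIs. Among inhibitory sub-clusters, a Slc1a3- and Spon1-led one held 36 nuclei in WT, none in PS19 and 6 in TG_PS19, with Gabra2 at 321 CPM and Gabra3 at 7.46 CPM. A small Lgr5- and Trh-led one (13, 2, 1 and 11 nuclei) had the highest Gabrd of the sub-clusters, 121.9 CPM.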
